A study of Mus musculus with 12 samples.

Results

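Thymic tumors of mice heterozygous for Mcm4 D573H were compared with whole thymus of mice of the same genotype that had no tumor. The arrays were chosen by their titles: 4 arrays of thymic tumor and 4 of pre-leukemic whole thymus, which are 8 of the 12 arrays of the series. All 17829 transcript clusters, the array's unit for a gene, were tested, and 15618 of them carry a single gene symbol. These clusters hold 15223 distinct symbols, and 1 cluster per symbol was used for every count of genes.

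Both groups came from female mice of the Sdl model that carried 1 mutant and 1 wild-type copy of Mcm4 (D573H/+). The pre-leukemic thymuses were taken at 21 days of age without further treatment given in the labels, and the tumors were taken from moribund mice whose age the labels do not give. Disease and age therefore cannot be told apart in this comparison. Each array read RNA pooled from 3 organs, so a pool of tumors can mix tumors that differ. The mutation is carried in the germ line, and every cell of the organ carries it, stroma and thymocytes alike. Another 4 arrays of wild-type thymus (Mcm4 +/+, 21 days) are given beside some values and were not part of the test.

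Mcm4 is a subunit of the MCM helicase, which is loaded on origins and unwinds DNA for replication. In the thymus, progenitors that receive Notch signals from the epithelium become double-negative thymocytes and expand. Receptor genes are rearranged over the double-negative and the CD4 and CD8 double-positive stages. The cells then mature into single-positive T cells under the control of epithelial and dendritic cells. T-cell acute lymphoblastic leukemia arises from such thymocytes, often with active Notch1 and Myc and with loss of Ikaros. A whole organ holds thymocytes together with epithelium, fat, vessels and blood cells, and in such bulk RNA fewer cells of a type and less RNA per cell cannot be told apart.

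The groups stood apart on every array. Across genes, log2 intensities correlated at 0.985 to 0.991 among pre-leukemic arrays, at 0.983 to 0.990 among tumors and at 0.960 to 0.976 between the groups. On principal components, tumors and pre-leukemic thymus lay apart along the first axis, with 51.5% of the variance. The second axis, with 21.2%, ran across both groups: pre-leukemic replicates 1 and 2 and tumors 2 and 3 had a narrower range of intensities, and the others a wider one. Its part in the results is shown by fits within each class of range. The Y-linked genes Eif2s3y and Kdm5d lay at or under 3.50 and 5.01 on the log2 scale on all arrays, which goes with the labelled sex. As a level for background, 95% of the 758 olfactory receptor genes lay under 6.89, and a level below this is called near background here. Where all 4 arrays of the lower group lie there, the printed difference is as measured and its true size has only a bound, taken as the mean of the higher group against this level. Among the genes given below this holds for Prss16, Slc46a2, Dll4, Ucp1, Akr1c18, Rsad2, Ccl22, Cd40lg, Kit, Nr4a3 and Traf1, which were lower in tumor, and for Ccdc169, Fbp1, Arg1, Ccl8, Drd5, Gpnmb, Atp6v0d2 and Slc7a3, which were higher.

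Of the 17829 clusters, 2855 (16%) were called at a limma adjusted p under 0.05, 1380 (7.74%) higher in tumor and 1475 (8.27%) lower. The largest changes were falls. At least 2-fold changes were called for 626 clusters (3.51%), 182 (1.02%) higher and 444 (2.49%) lower. The 2 groups of 4 arrays did not overlap in 21.8% of clusters, 11.6% with tumor higher and 10.2% with tumor lower. Among named genes, 28 rose and 73 fell at least 4-fold, 4 rose and 20 fell at least 8-fold, and 5 fell and 0 rose at least 16-fold. Over all named genes 7.81% were called higher and 8.48% lower, and each list count below is to be read beside these shares. The median difference over all named genes was 0.022, and the median standard error of a difference was 0.13. The number of calls depends on single arrays: without pre-leukemic replicate 1 there were 752 higher and 976 lower, and without tumor 4 there were 814 higher.

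**Figure D1:**
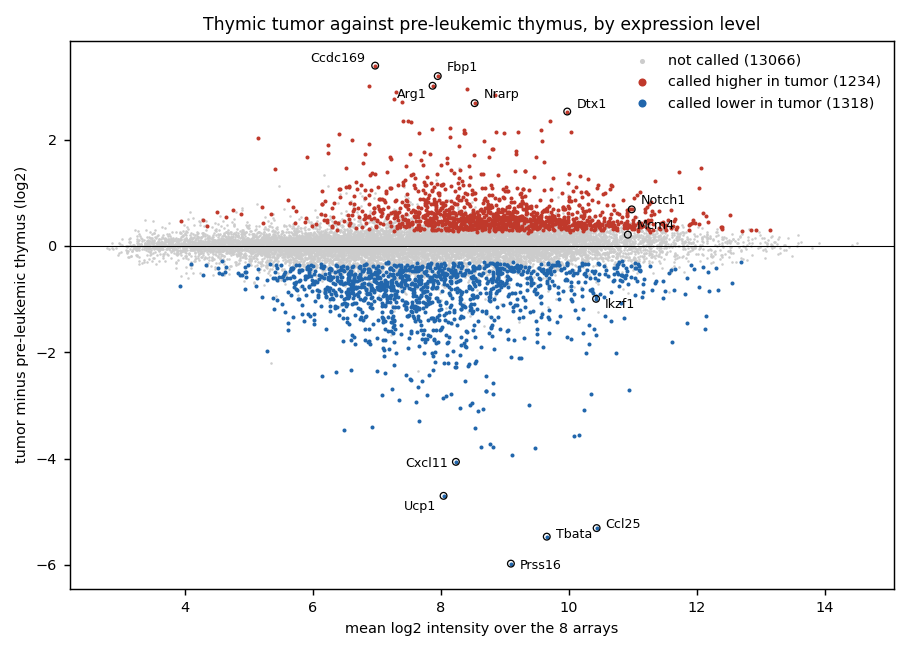
Each point is a transcript cluster with 1 gene symbol, with its mean log2 intensity over the 8 arrays on the horizontal axis and tumor minus pre-leukemic thymus on the vertical axis, in red for called higher, blue for called lower and grey for not called. The falls reach -5.98 (Prss16) and the rises 3.39 (Ccdc169), and Mcm4 lies near 0 at 0.21.

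Mcm4 itself, whose mutation both groups carry, was not called. Its log2 intensity was 11.04, 10.85, 11.09 and 11.13 in tumors 1 to 4 and 10.72, 10.87, 10.76 and 10.92 in the pre-leukemic replicates 1 to 4, a difference of 0.21 ± 0.10 (SE, adjusted p = 0.185). The groups overlapped at tumor 2. All 10 measured MCM helicase proteins had positive differences, from 0.06 to 0.35 with a median of 0.25, and 0 of them were called by limma, with 5 at an unadjusted p under 0.05. Under the other settings 0 to 5 were called, 5 with array weights and 4 with all 12 arrays in the fit. Mcm2, another helicase subunit, differed by 0.28 ± 0.10 (adjusted p = 0.102), Mcm6 by 0.35 ± 0.11 (adjusted p = 0.0684) and Mcmbp, a binding partner of the complex, by 0.33 ± 0.10 (adjusted p = 0.0622). Mcm6 passed the test in the fit without tumor 2, where its difference was 0.41. On simulated data with 200 of 17829 clusters changed, the test recovered 0% of changes of 0.25, 24% of 0.5, 74% of 1 and 96% of 2 (log2). In the real comparison 2855 clusters were called, which makes the adjusted cut-off less strict than in the simulation. These shares therefore do not give the recovery here, and a missing call does not show that an MCM gene is unchanged.

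The 3 largest measured falls were in genes of the cortical thymic epithelium, the stromal cells that nurse double-positive thymocytes. All 19 measured genes of that list were called lower in tumor, against 8.48% of all named genes, with a median difference of -1.68. Prss16, a serine protease of cortical epithelium that takes part in positive selection of CD4 cells, had log2 intensities of 5.85, 6.35, 6.18 and 6.04 in tumors 1 to 4 and 12.02, 12.20, 11.92 and 12.19 in the pre-leukemic replicates. No array of one group came near the other, and the tumor values lie near background. The measured difference was -5.98 ± 0.12 (adjusted p = 2.90e-08), and against the background level Prss16 was at least 36.6-fold lower in tumor. Ccl25, the chemokine that draws progenitors and CCR9-bearing thymocytes, stood at 7.54 to 8.01 in tumors and at 12.97 to 13.14 in pre-leukemic thymus, and fell by 5.31 ± 0.13 (adjusted p = 6.60e-08). Tbata, a thymus stromal gene, fell by 5.47 ± 0.25 (adjusted p = 5.59e-06). Psmb11, the catalytic subunit of the thymoproteasome, fell by 3.72 ± 0.17 (adjusted p = 5.48e-06), and its tumor values ran from 6.60 to 7.40. The keratins Krt18 and Krt8 fell by 3.93 ± 0.32 and 3.55 ± 0.31, and both were higher in tumor 4 (8.16 and 9.36) than in the other tumors.

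Foxn1, the transcription factor that makes thymic epithelium, read 7.08, 6.93, 7.09 and 6.69 in tumors and 8.31, 8.68, 8.40 and 8.39 in pre-leukemic thymus, and fell by 1.49 ± 0.12 (adjusted p = 0.000116). Slc46a2, a solute carrier of thymic stroma, fell by a measured 3.41 ± 0.11 to levels of 5.05 to 5.48, which are near background, and was at least 3.34-fold lower. The mean over the 19 genes was 6.88 to 7.23 in tumors, 9.56 to 9.73 in pre-leukemic thymus and 9.44 to 9.62 in wild-type thymus, and 9 of the 19 had tumor means near background. All 19 calls were kept whichever single array was left out, and 16 and 17 of them held within the 4 arrays of narrower and of wider range. Dll4, the Notch ligand of this epithelium, is among them and fell by 1.56 ± 0.18 (adjusted p = 0.000686). Medullary epithelium, which presents tissue antigens, had 8 of 12 measured genes lower and 0 higher, with a median of -1.02. Krt17 fell by 2.58 ± 0.29, Epcam by 2.01 ± 0.22 and Krt5 by 1.90 ± 0.24, and the groups did not overlap in any of these 3 genes. Within the arrays of narrower range 8 of the 12 were called and within those of wider range 0, with medians of -0.99 and -1.03.

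**Figure D2:**
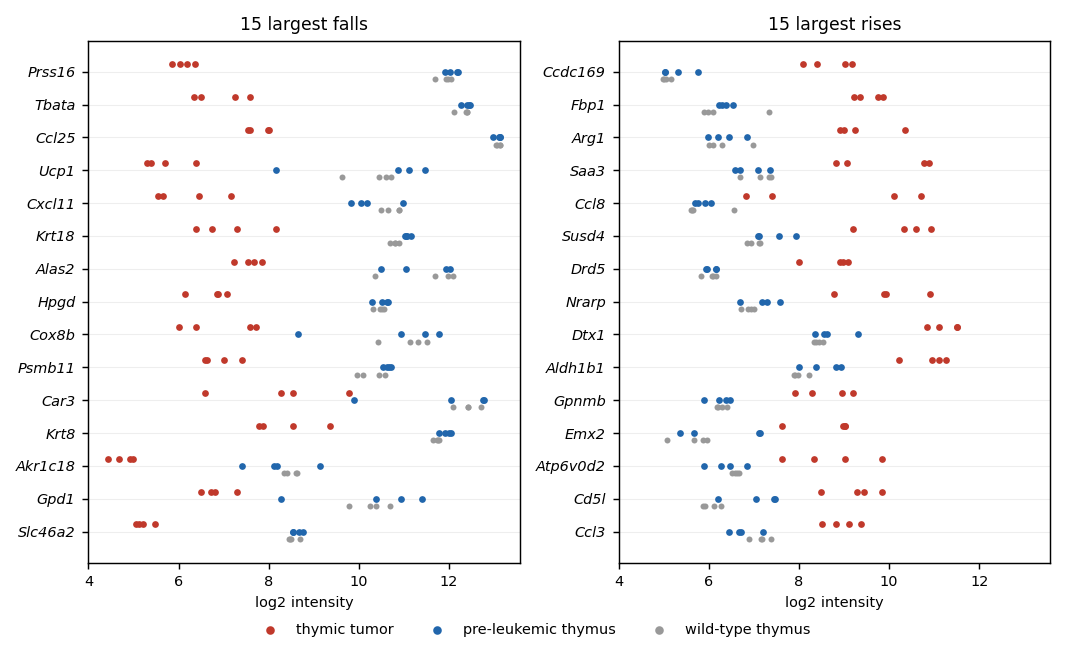
Log2 intensity of each array (points) for the 15 largest falls and the 15 largest rises among called genes whose groups did not overlap, with tumors in red, pre-leukemic thymus in blue and wild-type thymus in grey. Epithelial genes such as Prss16 lie tightly in all 3 groups, while the fat genes Ucp1, Cox8b, Car3 and Gpd1 are lower in pre-leukemic replicate 3 than in the other pre-leukemic arrays.

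Fat genes fell as well. Of 16 measured genes, 13 were called lower and 0 higher, with a median of -1.62. Ucp1, the uncoupling protein of brown fat, had log2 intensities of 5.38, 5.70, 6.39 and 5.30 in tumors and 11.11, 10.86, 8.15 and 11.46 in pre-leukemic thymus. Pre-leukemic replicate 3 was far below the others of its group and still above all tumors. It fell by a measured 4.70 ± 0.64 (adjusted p = 0.00162), and was at least 11.4-fold lower against the background level. Cox8b, which belongs to respiratory complex IV, fell by 3.78 ± 0.67, and Gpd1, which makes glycerol phosphate for triglycerides, by 3.42 ± 0.57. The standard errors of these genes are several times the median of all genes, and the count of fat genes called lower ran from 6 (without pre-leukemic replicate 1, and without tumor 2) to 14 over the fits that left out 1 array. Within the 4 arrays of wider range 0 of the 16 were called, with a median of -1.30, and within the 4 of narrower range 12 were called lower.

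Genes of blood and antigen-presenting cells moved in the same direction in most lists. Dendritic cells had 8 of 12 genes lower and 0 higher, with a median of -0.72, and MHC class II with its loading machinery 4 of 5 lower, with a median of -1.60. Cd74, the invariant chain, read 9.29, 9.21, 10.40 and 9.996 in tumors and 11.82, 11.67, 11.69 and 11.80 in pre-leukemic thymus, and fell by 2.02 ± 0.24 (adjusted p = 0.000802). Cd83, a surface protein of mature dendritic cells and epithelium, fell by 2.99 ± 0.11 (adjusted p = 1.97e-06), and Siglech, a receptor of plasmacytoid dendritic cells, by 1.64 ± 0.17. B-cell genes had 6 of 13 lower, among which Cd79b fell by 1.24 ± 0.11. Ms4a1 was also called lower, with both group means near background. Neutrophil genes had 5 of 14 lower, led by Ngp at -2.94 ± 0.40, and erythroid genes 3 of 9 lower, led by Alas2, which starts heme production in erythroid cells, at -3.80 ± 0.32. Tumor levels were near background for 10 of the 14 neutrophil genes and 6 of the 9 erythroid genes. Over the fits that left out 1 array the neutrophil count ran from 3 (without pre-leukemic replicate 1, 2 or 4, or tumor 1 or 4) to 9 (without pre-leukemic replicate 3), and was 6 and 0 within the arrays of narrower and of wider range. The erythroid count ran from 2 to 6, the 6 again without pre-leukemic replicate 3. Class I and immunoproteasome genes had 0 of 12 higher and 1 lower by limma, with 4 at an unadjusted p under 0.05. Their count lower was 0 in every fit that left out 1 array, except that without tumor 3.

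Macrophage genes went in both directions. Among 20 measured genes 4 were called higher and 2 lower, and the median was 0.10. The defining markers did not pass the test: Adgre1 (F4/80) read 7.49 to 8.78 in tumors and 7.98 to 8.61 in pre-leukemic thymus, and Csf1r, the receptor for macrophage colony-stimulating factor, 8.04 to 8.81 and 8.33 to 8.75. Against this level, Arg1, the arginase of alternatively activated macrophages, rose from 6.44, 6.84, 6.20 and 5.98 in pre-leukemic thymus to 9.003, 8.92, 9.25 and 10.35 in tumors, by a measured 3.01 ± 0.31 (adjusted p = 0.000366), and was at least 5.62-fold higher. Cd5l, a secreted macrophage protein, rose by 2.22 ± 0.33 (adjusted p = 0.00263). Gpnmb, a glycoprotein of phagocytes, and Atp6v0d2, a vacuolar proton pump subunit of macrophages and osteoclasts, rose by 2.35 ± 0.27 and 2.33 ± 0.42. In Arg1, Cd5l, Gpnmb and Atp6v0d2 every tumor lay above every pre-leukemic array. Only 3 of the 20 list genes had every tumor higher, so these 4 are not all list members. They are not the same set as the 4 list genes called higher. Timd4, a receptor for dying cells on resident macrophages, fell by 0.95 ± 0.16 and Axl, a receptor kinase with a like role, by 0.87 ± 0.15. The mean of the 20 genes was 7.87 to 8.78 in tumors and 7.80 to 8.04 in pre-leukemic thymus. Over the fits that left out 1 array 2 to 6 of them were called higher, with 2 without pre-leukemic replicate 1, 3 or 4, or tumor 3 or 4.

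Saa3, an acute-phase protein made by macrophages and stroma, rose with them, from 6.58 to 7.36 in pre-leukemic thymus to 9.06, 8.82, 10.78 and 10.88 in tumors, by 2.96 ± 0.47 (adjusted p = 0.00325). Ccl8, a monocyte chemokine, read 7.40, 6.82, 10.10 and 10.71 in tumors and 5.70 to 6.05 in pre-leukemic thymus. Its rise of 2.90 ± 0.78 (adjusted p = 0.034) lost its call in 6 of 8 leave-one-out fits, with 2.25 without tumor 4 and 2.45 without tumor 3, the lowest values. Ccl3, a chemokine of activated myeloid and T cells, rose by 2.20 ± 0.21 (adjusted p = 0.000224) and was higher in all 4 tumors. Pdgfrb, the receptor of pericytes and fibroblasts, rose by 2.13 ± 0.39, whereas Postn, a matrix protein, fell by 1.12 ± 0.26. Postn lost its call without pre-leukemic replicate 1, at -1.02. Dpt and Lum were also called lower, and lost their calls in 6 and 4 of the 8 leave-one-out fits. In the fibroblast list as a whole 1 of 21 genes was higher and 3 were lower, with 0 to 11 lower over the fits that left out 1 array, the 0 being without pre-leukemic replicate 1.

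The lists of thymocyte stages each had more genes lower than higher, with medians of -0.90 for double-positive cells, -0.67 for mature T cells and -0.26 for early progenitors and double-negative cells. Differences between the stages were not tested. Of the CD3 chains of the T-cell receptor complex, Cd3e read 12.34 to 12.60 in tumors and 12.30 to 12.40 in pre-leukemic thymus, a difference of 0.14 ± 0.09 (adjusted p = 0.365), and Cd3g differed by -0.22 ± 0.08 (adjusted p = 0.117). Of the 20 genes of T-cell receptor signalling, 1 was called higher and 2 lower, with a median of -0.03. Over all named genes 7.81% were called higher and 8.48% lower. Double-positive genes had 13 of 17 lower and 0 higher, 11 to 13 lower over the fits that left out 1 array, and 7 and 8 lower within the arrays of narrower and of wider range. Cd4 read 11.01, 10.04, 9.64 and 10.02 in tumors and 11.35, 11.36, 11.87 and 11.58 in pre-leukemic thymus, and Cd8a read 11.28, 12.11, 11.85 and 10.70 in tumors against 12.76, 12.75, 12.91 and 12.81. All tumors were lower for both coreceptors, tumor 1 having the highest Cd4 and tumor 4 the lowest Cd8a. Cd4 fell by 1.36 ± 0.26 (adjusted p = 0.00859) and Cd8a by 1.32 ± 0.26 (adjusted p = 0.00954).

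Ccr9, the receptor for Ccl25, fell by 2.70 ± 0.27 (adjusted p = 0.000282), with tumors at 9.003 to 10.09 and pre-leukemic arrays at 12.08 to 12.70. Rag2, a subunit of the recombinase that rearranges receptor genes, fell by 1.83 ± 0.22 (adjusted p = 0.000849), from 8.85 to 9.70 down to 6.92 to 7.77. Plxnd1, a guidance receptor of double-positive cells, fell by 1.63 ± 0.14, and Bcl6, a repressor of this stage, by 1.78 ± 0.18. Mature T-cell and egress genes had 3 of 16 higher and 7 lower. The count higher was 2 without pre-leukemic replicate 2 or 4, or tumor 1, 2 or 3. In the same fits the chemokine receptor Ccr4, called higher with both group means near background, lost its call. Il7r, the receptor chain for interleukin 7, rose by 0.98 ± 0.19 (adjusted p = 0.0086), while Cd40lg, a ligand that helps B cells, fell by 1.76 ± 0.24 and Cd5, which dampens receptor signals, by 1.33 ± 0.19. The list of early progenitors and double-negative cells had 1 of 20 higher and 6 lower. The count lower was 3 without pre-leukemic replicate 1 or tumor 4, and 1 and 2 within the arrays of narrower and of wider range. The gene called higher was Il2ra, which marks some of the double-negative stages, at 12.25, 12.68, 12.51 and 12.17 in tumors and 11.44, 10.73, 10.67 and 11.25 in pre-leukemic thymus. It rose by 1.38 ± 0.19 (adjusted p = 0.00182). Kit, the progenitor receptor, fell by a measured 0.72 ± 0.14 to levels near background, and Meis1, a progenitor homeobox gene, was called lower with both group means near background.

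**Figure D3:**
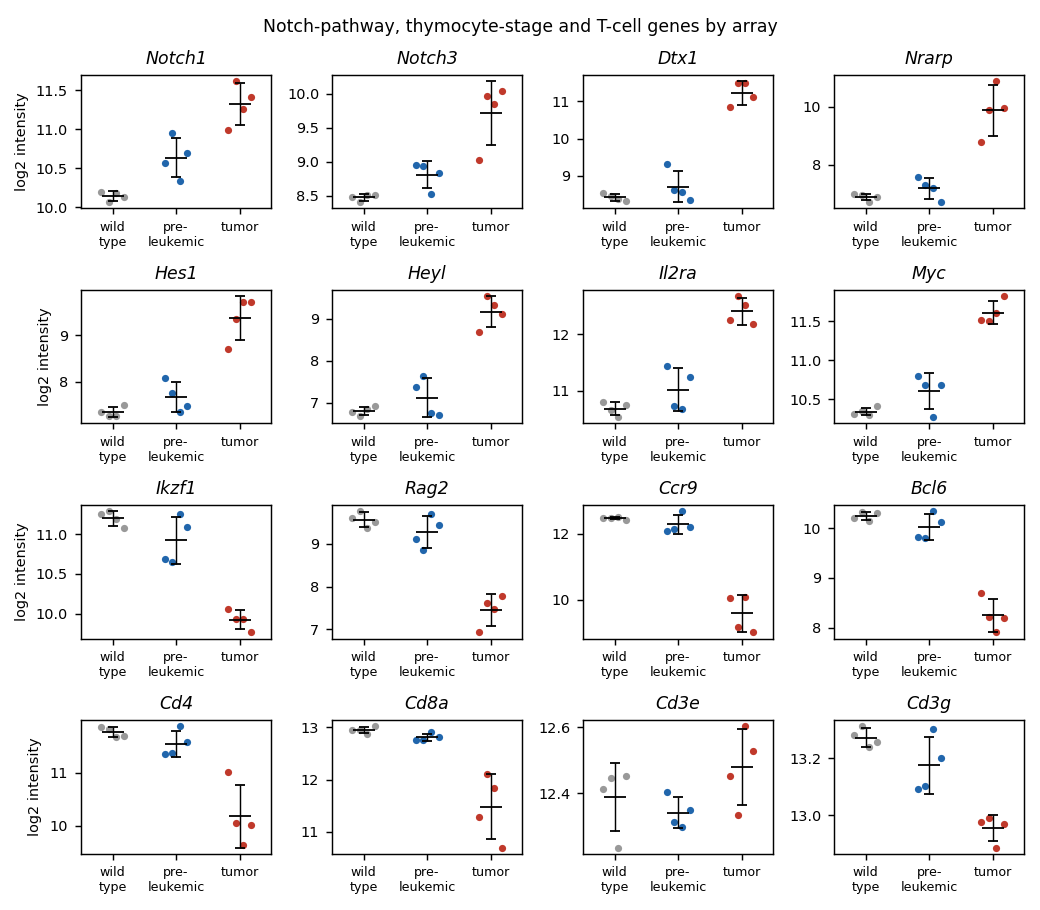
Log2 intensity of each array for 16 genes in wild-type thymus (grey), pre-leukemic thymus (blue) and tumor (red), with the mean and SD of 4 arrays in black and a vertical axis of its own for each gene. Dtx1, Nrarp, Hes1 and Heyl are higher in every tumor, Rag2, Ccr9, Bcl6, Cd4, Cd8a and Ikzf1 are lower in every tumor, and the groups overlap for Cd3e.

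Of 28 measured genes of the Notch pathway, 10 were called higher, against 7.81% of all named genes, and 3 lower, with a median of 0.14. Notch1 read 10.997, 11.62, 11.26 and 11.42 in tumors and 10.56, 10.95, 10.34 and 10.70 in pre-leukemic thymus, so the lowest tumor lay only just above the highest pre-leukemic array. The rise was 0.69 ± 0.16 (adjusted p = 0.0209). It lost its call without pre-leukemic replicate 1 and without tumor 4, at 0.66 each (adjusted p = 0.0632 and 0.0615). Notch3 rose by 0.91 ± 0.22 (adjusted p = 0.021) and lost its call in 4 fits, without pre-leukemic replicate 3 and without tumor 2, 3 or 4, at 0.81 to 0.87.

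Among targets of the pathway, Nrarp, a feedback inhibitor of Notch, read 8.77, 9.88, 10.90 and 9.94 in tumors and 7.57, 7.29, 7.18 and 6.70 in pre-leukemic thymus, a rise of 2.69 ± 0.39 (adjusted p = 0.00204). Dtx1, a ubiquitin ligase of the pathway, rose by 2.53 ± 0.22 (adjusted p = 0.000163), from 8.35 to 9.32 up to 10.84 to 11.50. The repressors Heyl and Hes1 rose by 2.05 ± 0.25 and 1.70 ± 0.24, and Trib2, a pseudokinase, by 1.06 ± 0.21. Tumor 1 had the lowest value of the 4 tumors for Notch1, Notch3, Nrarp, Dtx1, Heyl, Hes1 and Trib2. The 3 genes called lower were Dll4, the target Hey1, a repressor also used in vessels and epithelium, at -1.32 ± 0.13, and Lfng, a glycosyltransferase that tunes receptors for Delta ligands, at -0.95 ± 0.19. The count called higher ran from 6 (without tumor 4) to 9 over the fits that left out 1 array, and was 8 in the arrays of narrower range and 2 in those of wider range.

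In wild-type thymus the mean levels were 10.15 for Notch1 and 8.42 for Dtx1, beside 10.64 and 8.71 in pre-leukemic thymus and 11.32 and 11.24 in tumors. These values use the same pre-leukemic and tumor arrays as the comparison above.

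Ikzf1, which encodes Ikaros, read 10.06, 9.94, 9.94 and 9.77 in tumors and 10.69, 10.65, 11.26 and 11.09 in pre-leukemic thymus, and fell by 1.00 ± 0.15 (adjusted p = 0.00243) with no overlap. Its relative Ikzf2 (Helios) rose by 0.85 ± 0.17 (adjusted p = 0.0106). Among 18 genes known as oncogenes of T-cell leukemia 1 was called higher and 2 lower, beside 7.81% and 8.48% of all named genes. Their median was -0.05. The 1 higher was Myc, at 11.51, 11.51, 11.61 and 11.83 in tumors and 10.80, 10.69, 10.27 and 10.68 in pre-leukemic thymus. Myc rose by 1.01 ± 0.13 (adjusted p = 0.00133). The 2 lower were Meis1, given above, and Erg, an ETS factor of progenitors and vessels, which fell by 0.51 ± 0.14 (adjusted p = 0.0359). The count lower was 1 without pre-leukemic replicate 1, 2 or 4, or tumor 1 or 4. Of the 15 not called, Tal1, Lmo1, Tlx1, Tlx3, Olig2, Tal2 and Hoxa9 differed by -0.07 to 0.14, and 9 of the 18 genes were near background in tumors. Of 22 tumor suppressors of this leukemia 3 were called higher and 2 lower, beside 7.81% and 8.48% of all named genes. The count higher was 1 without pre-leukemic replicate 1 or 2 or tumor 4, and 1 within the arrays of each range. Lef1, a factor of the T-cell program, rose by 0.65 ± 0.10 (adjusted p = 0.00276), and Cdkn1b, an inhibitor of cyclin-dependent kinases, fell by 0.64 ± 0.13. Id3, which restrains E proteins, fell by 1.13 ± 0.23.

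Cyclins and survival genes changed in both directions. Ccnd3 and Ccnd2, the D cyclins of thymocytes, fell by 0.96 ± 0.08 (adjusted p = 0.00016) and 1.44 ± 0.30, and Cdk6, their kinase partner, rose by 0.97 ± 0.18. Cdkn2c, an inhibitor of that kinase, rose by 0.45 ± 0.10. Bcl2l1 (Bcl-xL), which keeps double-positive cells alive, read 7.53, 7.62, 7.19 and 7.24 in tumors and 8.73 to 8.92 in pre-leukemic thymus, and fell by 1.43 ± 0.12 (adjusted p = 0.000116). Bcl2 fell by 1.23 ± 0.14, and the killer Bak1 rose by 0.49 ± 0.08. Targets of p53 had 2 of 23 higher and 7 lower, beside 7.81% and 8.48% of all named genes. Fas, the death receptor, fell by 1.77 ± 0.15 (adjusted p = 0.000133). Perp, a p53 target that also belongs to epithelial junctions, fell by 2.79 ± 0.24, with tumors at 6.86 to 7.96. Zmat3 and Psrc1 rose by 0.81 ± 0.13 and 1.08 ± 0.14. Epithelial genes moved beside Perp as given above, and their part in its fall was not tested.

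Ribosome biogenesis had 19 of 24 genes higher and 0 lower, with a median of 0.51, 15 to 19 were higher over the fits that left out 1 array, and 6 and 11 within the arrays of narrower and of wider range, with medians of 0.43 and 0.64. Polr1b, part of the polymerase that transcribes ribosomal RNA, read 9.39, 8.93, 9.05 and 9.22 in tumors and 8.15, 8.34, 8.08 and 8.43 in pre-leukemic thymus, a rise of 0.90 ± 0.13 (adjusted p = 0.0018). Mybbp1a, a nucleolar protein, rose by 0.85 ± 0.12, Gnl3 (nucleostemin) by 0.74 ± 0.11, and Nop2, a methyltransferase of ribosomal RNA, by 0.71 ± 0.11. For all 4 the groups did not overlap. The mean of the 24 genes was 9.89 to 10.16 in tumors and 9.49 to 9.55 in pre-leukemic thymus. Cytosolic ribosomal proteins had 3 of 18 higher, with a median of 0.25, and these 3 fell to 0 without pre-leukemic replicate 1 or 2, or tumor 1 or 4. Oxidative phosphorylation had 0 of 27 called by limma in either direction, with 2 at an unadjusted p under 0.05, a median of 0.013 and differences of -0.30 to 0.21.

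Glycolysis and hypoxia genes had 15 of 24 higher and 1 lower, with a median of 0.49. Egln3, a prolyl hydroxylase induced by low oxygen, read 11.23, 10.46, 11.18 and 11.54 in tumors and 9.03, 8.77, 9.04 and 9.02 in pre-leukemic thymus, a rise of 2.14 ± 0.20 (adjusted p = 0.000219). Slc16a3, the lactate exporter, rose by 2.12 ± 0.13 (adjusted p = 2.12e-05), and Aldoc, an aldolase, by 1.09 ± 0.17. Other hypoxia genes of the list were not called: Vegfa differed by 0.09, Car9 by 0.22 and Bnip3 by 0.04. Over the fits that left out 1 array 13 to 15 were higher, and the count was 9 in the arrays of narrower and 4 in those of wider range. Fbp1, the fructose bisphosphatase that opposes glycolysis and lies outside this list, rose from 6.23 to 6.53 up to 9.23 to 9.87, by a measured 3.19 ± 0.15 (adjusted p = 5.63e-06). Its pre-leukemic values are near background, and it was at least 6.33-fold higher in tumor.

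Purine and pyrimidine synthesis had 9 of 21 higher and 0 lower, with a median of 0.35. Cad, which starts pyrimidine synthesis, rose by 0.92 ± 0.10 (adjusted p = 0.000455), and the purine enzymes Atic and Adsl by 0.69 ± 0.11 and 0.63 ± 0.12. The count higher was 6 without tumor 4. Serine and one-carbon metabolism had 8 of 12 higher and 1 lower, with a median of 0.58. Shmt2 rose by 1.03 ± 0.12, Mthfd1 by 0.75 ± 0.12 and Phgdh, the entry enzyme of serine synthesis, by 0.71 ± 0.11. Asns, the asparagine synthetase, read 9.98, 9.37, 9.51 and 10.002 in tumors and 7.58 to 8.13 in pre-leukemic thymus, a rise of 1.82 ± 0.18 (adjusted p = 0.000283). Amino acid transporters had 4 of 18 higher and 1 lower, with a median of -0.023 and 9 differences on each side of 0. Slc7a3, Slc7a5 and Slc7a1 rose by 1.11 ± 0.23, 0.97 ± 0.16 and 0.52 ± 0.11, and Slc38a2 fell by 0.44 ± 0.09. The count lower was 3 without tumor 1. Xbp1, a factor of the unfolded protein response and of secretory cells, fell by 0.83 ± 0.10. In the arrays centred on their medians, which moves the median of all clusters from 0.021 to 0.086, the medians of ribosome biogenesis and glycolysis were 0.58 and 0.56.

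Replication licensing and the replisome had 6 of 37 higher and 0 lower, with a median of 0.17, and 2 to 5 were higher over the fits that left out 1 array, with 2 without pre-leukemic replicate 1 or tumor 1 or 4. Wdhd1, a replisome adaptor, and Prim2, a primase subunit, each rose by 0.46 ± 0.08. Mitosis genes had 2 of 25 higher, near the 7.81% of all named genes, and a median of -0.01. These 2 calls fell to 0 without pre-leukemic replicate 1 or 3, or tumor 1 or 4. DNA damage response and repair had 7 of 25 higher and 0 lower, with a median of 0.18 and 2 to 6 higher over the same fits, with 2 without pre-leukemic replicate 1 or 2 or tumor 1 or 4. The lead was held by the 2 subunits of Ku, which bind broken ends: Xrcc6 read 10.90 to 11.03 in tumors and 10.05 to 10.28 in pre-leukemic thymus, a rise of 0.78 ± 0.09 (adjusted p = 0.00056), and Xrcc5 rose by 0.72 ± 0.11.

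**Figure D4:**
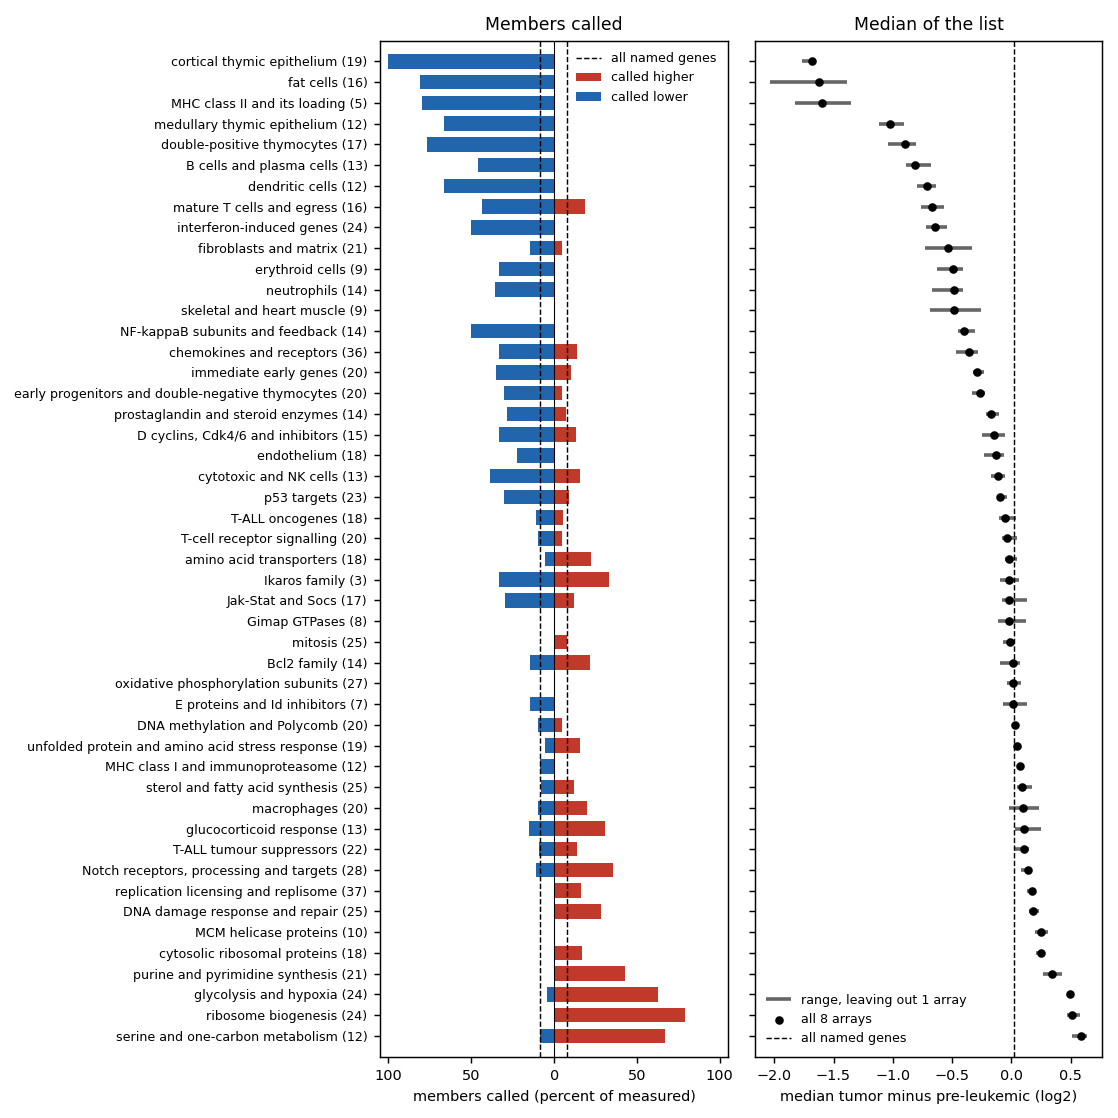
Left, the share of each list's measured members called higher (red) or lower (blue) in tumor, with the number measured in brackets and dashed lines at the shares over all named genes (7.81% and 8.48%). Right, the median difference of each list (points) with its range over the 8 fits that left out 1 array (bars). Cortical epithelium stands at -1.68 with 19 of 19 lower, and serine and one-carbon metabolism at 0.58.

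Of 24 measured interferon-induced genes 12 were called lower and 0 higher, with a median of -0.65, 9 to 13 were lower over the fits that left out 1 array, and 9 and 6 within the arrays of narrower and of wider range. The promoters of 3 genes that fell are shown because they hold the interferon-stimulated response element, the sequence read by the factor that type I interferon activates. Each is the 250 bases before the RefSeq start on GRCm38.p6, read 5′ to 3′ on the gene's strand, with matches to the motif (GAAA, any 2 bases, GAAA, on either strand) in capitals. Ifit1 lies on the plus strand at chr19:34640639-34640888, Rsad2 on the minus strand at chr12:26456453-26456702 and Cxcl10 on the minus strand at chr5:92348890-92349139.
Ifit1: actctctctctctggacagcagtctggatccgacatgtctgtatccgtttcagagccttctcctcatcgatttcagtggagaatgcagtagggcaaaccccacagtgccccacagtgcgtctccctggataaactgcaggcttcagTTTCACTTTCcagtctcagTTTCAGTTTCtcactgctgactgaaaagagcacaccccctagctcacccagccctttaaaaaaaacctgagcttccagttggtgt
Rsad2: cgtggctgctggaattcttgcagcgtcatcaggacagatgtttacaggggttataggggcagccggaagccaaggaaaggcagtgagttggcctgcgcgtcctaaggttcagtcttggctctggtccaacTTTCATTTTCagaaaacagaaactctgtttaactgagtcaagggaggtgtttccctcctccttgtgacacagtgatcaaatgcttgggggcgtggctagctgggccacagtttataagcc
Cxcl10: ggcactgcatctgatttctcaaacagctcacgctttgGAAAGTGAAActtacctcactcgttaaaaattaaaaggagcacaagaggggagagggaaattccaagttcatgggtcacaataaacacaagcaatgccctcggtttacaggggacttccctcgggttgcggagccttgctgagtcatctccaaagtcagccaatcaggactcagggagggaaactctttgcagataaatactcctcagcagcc

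In the window from 250 bases before to 50 after the start, this motif was present for 10 of the 17 interferon genes with a promoter in the table (58.8%), for 3.85% of 12174 named genes and for 3.44% of all 32851 promoters. Among all genes that fell the share was 4.41%, and among those that rose 3.37%. Of the 9 interferon genes called lower with a promoter there, 5 held it (55.6%), a share like that of the whole list. In the 250 bases before the start alone, 8 of the 17 and 4 of the 9 held it. A match describes the letters only.

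Ifit1, an RNA-binding antiviral protein, read 7.14, 6.69, 7.29 and 7.31 in tumors and 9.70, 9.31, 10.26 and 9.30 in pre-leukemic thymus, and fell by 2.54 ± 0.23 (adjusted p = 0.00017). Rsad2 (viperin) read 6.04 to 6.32 in tumors, near background, and 9.20, 8.05, 7.43 and 8.89 in pre-leukemic thymus, and fell by 2.24 ± 0.33 (adjusted p = 0.00246). Cxcl10, a chemokine for CXCR3-bearing cells, fell by 1.41 ± 0.15 (adjusted p = 0.000477). The groups did not overlap for any of the 3. Cxcl11, its relative, fell by 4.06 ± 0.37 (adjusted p = 0.000187), Isg20, an exonuclease, by 3.09 ± 0.14 (adjusted p = 5.48e-06), and Oasl2 by 2.26 ± 0.16.

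The antiviral GTPases Mx1 and Mx2 were high in some tumors. Mx1 read 8.23 and 8.25 in tumors 1 and 4 and 6.15 and 6.29 in tumors 2 and 3, beside 6.08 to 6.63 in pre-leukemic thymus, and Mx2 read 8.50, 6.05, 6.42 and 7.97 in tumors 1 to 4. Neither was called over the 8 arrays (adjusted p = 0.297 and 0.228). Tumors 1 and 4 are also the tumors of wider range. Within the 4 arrays of that range the differences were 1.89 and 2.04, and both were called. Within the 4 arrays of narrower range they were -0.15 and -0.065. Both genes were chosen after their values were seen, and the wider class holds the tumors where they are high. Its calls are therefore no test of these genes. The interferon list was lower beside the lists of epithelium and dendritic cells, which also express such genes, and their part in it was not tested.

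Other signalling lists fell in part. NF-kappaB subunits and feedback genes had 7 of 14 lower and 0 higher, with a median of -0.40 and 4 to 7 lower over the fits that left out 1 array, with 4 without pre-leukemic replicate 1 or tumor 3 or 4. Rel, a subunit, fell by 1.15 ± 0.21, and Traf1, a feedback gene, by 0.90 ± 0.13. Immediate early genes had 2 of 20 higher and 7 lower. The nuclear receptor Nr4a3 fell by 1.40 ± 0.20 and Egr2 by 1.17 ± 0.18, both induced by receptor signals in thymocytes, whereas Atf3 rose by 0.60 ± 0.13. Among Jak-Stat genes Socs2 and Socs1 fell by 1.18 ± 0.24 and 0.90 ± 0.13. Socs3 rose by 1.16 ± 0.28 and lost its call without pre-leukemic replicate 4 and without tumor 3 or 4, at 1.05, 1.02 and 1.01. Glucocorticoid-induced genes had 4 of 13 higher and 2 lower. Mt2, a metallothionein, rose by 1.23 ± 0.20, Ddit4 by 1.14 ± 0.13 and Fkbp5, a chaperone of the receptor, by 0.91 ± 0.14, while Errfi1 fell by 1.21 ± 0.16.

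Chemokines and their receptors had 5 of 36 higher and 12 lower, with 3 higher without pre-leukemic replicate 2 or 4 or tumor 3. Beside Ccl25 and Ccr9, Ccl5 fell by 2.72 ± 0.22 and Ccl22, a chemokine of medullary epithelium and dendritic cells, by 2.43 ± 0.27. Cytotoxic and natural killer genes had 2 of 13 higher and 5 lower. Gzma, a granzyme, read 10.98, 10.80, 10.96 and 10.92 in tumors and 9.71, 9.89, 9.53 and 9.52 in pre-leukemic thymus, a rise of 1.25 ± 0.11 (adjusted p = 0.000133). Nkg7, a granule protein, fell by 2.21 ± 0.39 and Ctsw by 1.78 ± 0.17, and the receptor Klrd1 was called lower with both group means near background. Hpgd, which breaks down prostaglandins, fell by 3.79 ± 0.19 (adjusted p = 6.95e-06), and Akr1c18, a reductase of progesterone, by a measured 3.46 ± 0.31 to levels near background, and was at least 2.502-fold lower. Tet2, which oxidises methylated cytosine, fell by 1.06 ± 0.20 (adjusted p = 0.00723).

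Endothelial genes had 4 of 18 lower and 0 higher, with a median of -0.13. The count lower was 1 without pre-leukemic replicate 1, 2 or 4, or tumor 1, 2 or 4, and 1 and 0 within the arrays of narrower and of wider range. Among the other lists, sterol and fatty acid synthesis had 3 of 25 higher and 2 lower. The unfolded protein and amino acid stress response had 3 of 19 higher and 1 lower. DNA methylation and Polycomb had 1 of 20 higher and 2 lower. The shares over all named genes were 7.81% higher and 8.48% lower. Muscle genes and Gimap GTPases had 0 of 9 and 0 of 8 called by limma, with 2 of each at an unadjusted p under 0.05. The medians were -0.49 for muscle, where 8 of 9 differences were negative and 2 genes were called lower without tumor 1, and -0.018 for Gimap genes.

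Several of the largest rises were in genes outside these lists. Ccdc169, a coiled-coil gene, read 9.02, 8.40, 9.18 and 8.09 in tumors and 5.76, 5.31, 5.02 and 5.03 in pre-leukemic thymus, so that it rose from near background by a measured 3.39 ± 0.26 (adjusted p = 7.96e-05) and was at least 3.44-fold higher. Susd4, a regulator of complement, rose by 2.83 ± 0.35. Drd5, a dopamine receptor, rose by 2.70 ± 0.22 (adjusted p = 0.000108), with 8.002 in tumor 1 and 8.91 to 9.08 in the others. Emx2, a homeobox gene, was likewise lowest in tumor 1, at 7.62 against 8.97 to 9.03, and rose by 2.34 ± 0.47 (adjusted p = 0.0102). Aldh1b1, a mitochondrial aldehyde dehydrogenase, rose by 2.35 ± 0.26. Hdgfl3, a growth factor relative, rose by 2.12 ± 0.12 (adjusted p = 1.69e-05), and the gap of 1.85 between its lowest tumor and highest pre-leukemic array was among the widest of all rises.

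The 4 tumor pools differed from each other in few genes. The median SD over 4 arrays was 0.18 in tumors and 0.17 in pre-leukemic thymus, and the SD was over 1 in 57 genes of the tumors and 33 of the pre-leukemic thymus. The largest belonged to genes high in 1 pool. Bpifa2, a secreted protein of the parotid gland, read 11.43 in tumor 2 and 5.15 to 5.44 in the others. Nppa, the atrial natriuretic peptide of the heart, read 10.89 in tumor 3 and 6.25 to 6.45 in the others. Trhr, the receptor for thyrotropin-releasing hormone, read 9.38 in tumor 4 and 4.37 to 5.29 in the others. None of the 3 was called.

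**Figure D5:**
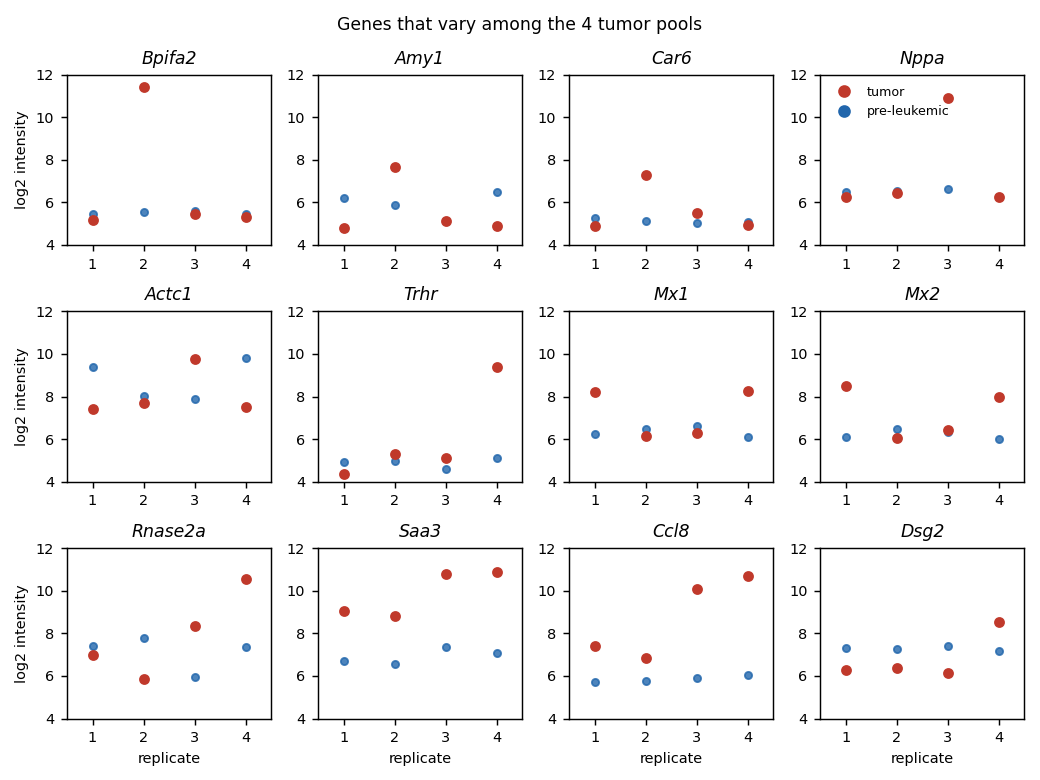
Log2 intensity by replicate for 12 genes that vary among the tumor pools, with tumors in red and pre-leukemic thymus in blue. Bpifa2, Amy1 and Car6 are high in tumor 2 only, Nppa is high in tumor 3 only, and Mx1 and Mx2 are high in tumors 1 and 4. Equal replicate numbers do not pair a tumor with a thymus, and where both values are close the tumor point covers the other.

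By chromosome, the median difference over genes above a log2 level of 7 ran from -0.00 on chromosome 6 to 0.09 on chromosome 18. Chromosome 15 had the largest share of its genes called higher, 11.5%, and the X chromosome the smallest, 4.02%, beside 7.81% of all named genes. The median of chromosome 15 over genes above that level was 0.047, below those of chromosomes 8 (0.083) and 18 (0.089). The widest shift of a single pool was 0.17 on chromosome 8 in tumor 1. Chromosome 15 stood at 0.049, 0.015, 0.12 and 0.025 in tumors 1 to 4. These values are medians over pools of 3 tumors and were not tested.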

How the data were processed

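RNA from 3 pooled organs per sample was read on Affymetrix Mouse Exon 1.0 ST arrays, 4 arrays a group. The deposited values are normalized intensities on a linear scale, 1 for each transcript cluster, from 6.31 to 24310 on these 8 arrays. How it was normalized is not given in the sources used here. The planned test assumed log2 values, so each intensity was log2-transformed without a pseudocount. Other deposited matrices hold 24 columns whose pool names match no label and were not used. Per the labels, the arrays of a group are biological replicates.

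Tumor was fitted against pre-leukemic thymus on these 8 arrays by a linear model with moderated variances (limma 3.58.1 under R 4.3.3, two-sided), over all 17829 clusters without a filter, with Benjamini-Hochberg adjustment. Every adjusted p is from this fit, unless another fit is named beside it. Error is the standard error of the log2 difference. The test was checked on simulated data with 200 changed genes and made 7 false calls among 17629 unchanged ones. A microarray has no read depth, and the number of arrays limits the precision. Symbols came from the platform annotation. Where a symbol had several clusters, the one with the highest mean was used. Replicate numbers did not pair samples: deviations of same-numbered arrays correlated at -0.22, 0.42, -0.41 and 0.25.

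The members and the 48 gene lists were chosen with earlier results of these data known. Of 992 list entries, 848 matched. Lists are described by counts and medians, with no test. The text names genes by a rule: Mcm4, Mcm2, Notch1 and Ikzf1, the 15 largest rises and falls with separate groups, the 5 widest gaps each way, up to 3 called members of a list in each direction (or the 2 with the smallest p) and the 5 largest tumor SDs. Foxn1, Cd4, Cd8a, Cd3d, Cd3e, Cd3g, Adgre1 and Csf1r are named as cell type markers. Hes1, Notch3, Trib2, Rsad2, Cxcl10, Oasl2, Nop2, Mx1, Mx2, Amy1, Car6, Pip, Actc1, Myl7, Pln, Dsg2, Dsc3, Tal1, Lmo1, Tlx1, Tlx3, Olig2, Tal2, Hoxa9, Vegfa, Car9 and Bnip3 were chosen after their values were seen. Promoters were those of RefSeq (GRCm38.p6).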

Additional observations from a re-analysis of the deposited data

Results flagged for a closer look

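In 24 of 418 pairs of a named gene and a group (5.74%), 1 array stood apart from the other 3 by the Dixon gap test at its 95% critical value for 4 values. Chance gives about 5% for genes chosen without regard to their values. Many of these genes were chosen by their array values, some for a large tumor SD, so the shares cannot be compared. Among tumors, the highest array stood apart for Bpifa2 (11.43), Amy1 (7.67) and Pip (6.36) in tumor 2, for Nppa (10.89), Actc1 (9.77), Dpt (8.62) and Xbp1 (10.13) in tumor 3, and for Dsg2 (8.52) and Uhrf1 (11.03) in tumor 4. The lowest array stood apart for Cd3d (10.45), Ccl22 (6.03), Drd5 (8.002) and Emx2 (7.62) in tumor 1, for Axl (8.38) and Slc16a3 (9.13) in tumor 2, and for Ccr4 (6.27) in tumor 4. In pre-leukemic thymus, the highest array stood apart for Epcam (9.22) and H2-Aa (11.05) in replicate 3 and for Stard4 (8.19) in replicate 2. The lowest stood apart for Aqp1 (7.37), Slc7a5 (9.57) and Nop2 (8.92) in replicate 3, Egln3 (8.77) in replicate 2 and Ccl25 (12.97) in replicate 1. All values are log2 intensities. For the called genes among these, the tumor and pre-leukemic arrays did not overlap, apart from Dpt and Ccr4.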

How the results depend on the processing

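No call of the 2855 turned direction under any of the 22 alternatives. Leaving out 1 array gave 752 to 1284 clusters higher and 976 to 1484 lower, and 32 to 34 of the 180 named genes called lost the call without tumor 4 or pre-leukemic replicate 1. Adding the replicate block, which the pairing check does not favour, gave 900 higher and 1163 lower. It changed the call of 26 named genes. All 12 arrays in one fit gave 2194 higher and 2096 lower. Without the 2 pre-leukemic arrays of narrowest range there were 450 and 712. A posterior probability over 95%, the series' own cut-off, was here taken from limma with an assumed share of 0.01 of clusters changed. It gave 112 and 252, of which 75 and 205 at least 2-fold, and these counts depend on that assumed share. A test against a 1.5-fold change (treat) gave 68 and 192, of which 68 and 191 at least 2-fold. Chosen after seeing the data, a block for the range of the array gave 2215 higher and 2062 lower, the 4 arrays of narrower range alone 384 and 761, and the 4 of wider range alone 400 and 453. With 2 arrays a group such fits call less by construction. For the rest the cause was not tested. Of the 180 named genes called, 47 kept the call under every alternative and 133 lost it under at least 1. A table of the series' second matrix was not run, since its columns match no label.

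Differences that turned sign were not called in either setting. Over the fits that left out 1 array, Adgre1 ran from -0.21 to 0.22, Cd3d from -0.091 to 0.060, Bpifa2 from -0.20 to 1.89, Car6 from -0.025 to 0.77, Csf1r from -0.20 to 0.059, Nppa from -0.15 to 1.39 and Rnase2a from -0.060 to 1.51. With arrays centred on their median, Adgre1 gave 0.043 and Cd3d 0.017, and with array weights Adgre1 gave 0.0023. In the arrays of narrower range alone, Actc1 gave 0.032, Amy1 0.36, Cd3d 0.11, Mx1 -0.15, Mx2 -0.065, Pln 0.20 and Rnase2a -0.49, and the median of T-cell receptor signalling 0.084. In those of wider range alone, Adgre1 gave 0.00083, Bpifa2 -0.27, Car6 -0.15, Csf1r 0.040, Dsg2 0.092 and Nppa -0.17, and the median of Jak-Stat genes 0.17.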

Other observations

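Tumor 2 and tumor 3 each carried genes of an organ other than the thymus, chosen after their values were seen. Beside Bpifa2, tumor 2 had Amy1, the salivary amylase, at 7.67 (4.81 to 5.14 in the other tumors), Car6, a salivary carbonic anhydrase, at 7.27 (4.87 to 5.49) and Pip, a secretory protein of exocrine glands, at 6.36 (4.43 to 4.76). Beside Nppa, tumor 3 had the heart genes Actc1 at 9.77 (7.40 to 7.69), Myl7 at 7.41 (6.03 to 6.39) and Pln at 7.20 (5.46 to 5.88). Heart genes also varied in tumor-free thymus: Nppa read 6.15, 10.22, 10.89 and 7.47 in wild-type replicates 1 to 4, and Actc1 7.90 to 9.79 in pre-leukemic thymus. Tumor 4 had the desmosome genes Dsg2 at 8.52 (6.14 to 6.37) and Dsc3 at 8.16 (5.60 to 6.17), beside its higher Krt8 and Krt18.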
